A study of Homo sapiens with 10 samples.

Results

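The ZIC genes encode zinc finger transcription factors of early embryos, and OTX2 encodes a homeobox transcription factor of the anterior embryo. Their transcripts were followed in H1, a widely used human embryonic stem cell line, after knockdown of 4 chromatin or transcription regulators. The members were chosen by gene name from the single-library table, as ZIC family rows or OTX2. Described here are 4 of them, ZIC1, ZIC2, ZIC5 and OTX2, out of 13808 gene rows and 14785 rows in all. All 4 entered the fit, since no row fell under the filter on low values. The set was chosen on the deposited values of these same libraries, ZIC1 in the SMARCA4 knockdown among them, so the members' values are given as a description, with no test.

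The study made RNA-seq libraries from wild-type H1 cells that carried a short hairpin RNA (shRNA) delivered by packaged virus and selected with puromycin. The hairpins targeted SMARCA4 (the ATPase of BAF chromatin remodelling complexes), MAFK (a small MAF transcription factor), E2F6 (a repressive E2F factor) or KDM1A (a histone demethylase), and the groups are called shSMARCA4, shMAFK, shE2F6 and shKDM1A. The control hairpin, shLUC, targeted luciferase, which the cells lack, so the controls also carried virus, hairpin and puromycin selection. Each of the 5 groups had 2 libraries, described as biological duplicates, and the labels state neither the time of harvest nor the number of hairpins for each target. The 4 knockdown comparisons share the same pair of shLUC libraries, so a value that is low or high in shLUC moves all 4.

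Values are the authors' normalized tag counts, whole numbers of which 80.3% are equal in all libraries when ranked. Library totals are nearly the same (22836548 to 22855295), and the read depth is therefore unknown. Differences are on the log2(value + 1) scale as knockdown minus shLUC, with a standard error (SE) from 1 limma fit of all 10 libraries. The targeted transcripts were at 12.7% of shLUC for SMARCA4, 42.1% for KDM1A, 61.3% for E2F6 and 59.6% for MAFK, and shMAFK replicate 2 (216) lay within the shLUC values of MAFK (212 and 288). The shKDM1A pair differed most between replicates, with an SD over all rows of 0.53 on the log2 scale against 0.264 to 0.335 in the other groups. All 10 defining markers of pluripotent cells were in the table, POU5F1, NANOG and SOX2 among them. Their sums were 168670 and 185386 in shLUC, 159591 and 138735 in shSMARCA4, and 166990 and 158948 in shE2F6. They were 172035 and 192826 in shMAFK and 271769 and 180502 in shKDM1A. In shSMARCA4 and shE2F6 the sums of both libraries thus lay below both controls, but the markers did not move together. In shSMARCA4, SOX2 was lower (4426 and 4748 against 6408 and 6928) and NANOG higher (4613 and 3699 against 2512 and 2639). In shE2F6, SOX2 was lower (5706 and 5367), and LIN28A was at 41812 and 51691 against 41812 in both controls. Sums also weigh the most abundant rows most. The highest sum goes with POU5F1, at 148866 in shKDM1A replicate 1 against 35710 in both controls. Of the neural crest markers SOX10, TFAP2A, PAX3, SNAI2 and TWIST1, 0 of 5 were in the table, neuroectoderm was represented by SOX3 only (1 of 6), endoderm by FOXA2 and EOMES (2 of 4), and mesoderm and trophoblast by 4 of 13.

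ZIC proteins bind DNA through C2H2 zinc fingers related to those of the GLI factors, which carry Hedgehog signals, and can also act as cofactors of other transcription factors. In embryos they are known for roles in neural plate, neural crest and dorsal midline development. ZIC2 is also made in pluripotent cells. OTX2 is known as a regulator of the exit from naive pluripotency and of forebrain and head development.

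ZIC1 (ENSG00000152977) is annotated on chromosome 3, 147393422 to 147510293, plus strand, on GRCh38. Its gene model overlaps ZIC4 (147386046 to 147406860, minus strand), and the strand setting of the counting is not given in the sources used here, so reads of this pair may not be told apart. ZIC2 (ENSG00000043355) lies on chromosome 13, 99981772 to 99986773, plus strand, and ZIC5 (ENSG00000139800) at 99962964 to 99971909 on the minus strand. These 2 genes point away from each other across a gap of 9862 bases. OTX2 (ENSG00000165588) lies on chromosome 14, 56799905 to 56810479, minus strand. All 4 are protein-coding.

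The promoters of ZIC1, ZIC2 and ZIC5 are shown because these paralogs took opposite positions in shSMARCA4, ZIC1 above and the other two below the controls. Each sequence is the 250 bases before the first listed RefSeq start, 5′ to 3′ on the gene's strand, from RefSeq on GRCh38.p14. All 4 members had an entry, with 1 start listed for ZIC1 and ZIC2, 3 for ZIC5 and 2 for OTX2. Capitals mark GC boxes (GGGCGG, with CCGCCC on the other strand), CCAAT boxes (CCAAT, with ATTGG on the other strand) and an E2F core (GCGGGA, with TCCCGC on the other strand).
ZIC1: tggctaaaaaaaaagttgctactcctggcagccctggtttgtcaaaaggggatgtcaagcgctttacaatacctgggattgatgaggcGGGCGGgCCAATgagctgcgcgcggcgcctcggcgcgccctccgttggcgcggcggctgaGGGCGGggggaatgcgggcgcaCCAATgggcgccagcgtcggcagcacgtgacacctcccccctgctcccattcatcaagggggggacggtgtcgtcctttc
ZIC2: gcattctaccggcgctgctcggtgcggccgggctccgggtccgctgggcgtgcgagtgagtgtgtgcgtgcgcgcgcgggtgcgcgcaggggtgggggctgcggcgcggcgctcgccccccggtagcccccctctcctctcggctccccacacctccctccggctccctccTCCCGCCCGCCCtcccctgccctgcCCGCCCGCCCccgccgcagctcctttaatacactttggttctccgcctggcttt
ZIC5: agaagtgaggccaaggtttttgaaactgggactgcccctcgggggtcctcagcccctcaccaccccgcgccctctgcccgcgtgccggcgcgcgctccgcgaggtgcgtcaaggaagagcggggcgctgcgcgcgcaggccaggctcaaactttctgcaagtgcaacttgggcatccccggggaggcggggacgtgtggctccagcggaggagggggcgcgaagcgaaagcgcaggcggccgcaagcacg

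The ZIC1 stretch (chr3:147409115-147409364, plus strand) held 2 GC boxes, 162 and 102 bases before the start, and 2 CCAAT boxes, 155 and 80 bases before it. Its start lies 19 bases from the nearest start in GENCODE release 29 and inside the longer ZIC1 gene model. The ZIC2 stretch (chr13:99981534-99981783, plus strand) held 4 GC boxes, 77, 73, 54 and 50 bases before the start, of which neighbours overlap, and an E2F core 79 bases before it that overlaps a GC box. The ZIC5 stretch (chr13:99971910-99972159, minus strand) held 0 matches to these motifs, and the stretches before its other listed starts were not examined. Among 27305 promoters of the same length, on either strand, 42.3% held a GC box, 33% a CCAAT box and 23.5% the E2F core. An OTX site (TAATCC or GGATTA, in 5.67% of promoters) and a MAF half-site (TGCTGAC or GTCAGCA, in 3.42%) were found in 0 of the 4 member promoters. Base composition was high in G and C in the ZIC promoters, at 64.4% in ZIC1, 75.6% in ZIC2 and 70.4% in ZIC5, against 47.2% in OTX2 and a median of 58% over all promoters. The ratio of observed to expected CpG was 0.90 in ZIC1, 0.90 in ZIC2, 0.91 in ZIC5 and 0.51 in OTX2, against a median of 0.56. A match describes letters in this window only.

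In control cells the members covered a wide range of levels. Per kilobase of annotated exon, the shLUC mean was 2688 ± 171 normalized tag counts (SD, n = 2) for ZIC2, 543 ± 80.0 for ZIC5, 215 ± 13.0 for OTX2 and 17.9 ± 5.61 for ZIC1. ZIC2 was therefore the most abundant of the 4 per length and ZIC1 the least, and this held for ZIC2 in all 10 libraries. ZIC1 was the lowest of the 4 in 9 libraries, and in shSMARCA4 replicate 2 it stood above OTX2 (148 against 99.6 per kilobase). Exon lengths are unions over all annotated transcripts, which lowers ZIC1 most, since its model is 6806 bases of exon against 3272 to 4639 for the other members.

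**Figure D1:**
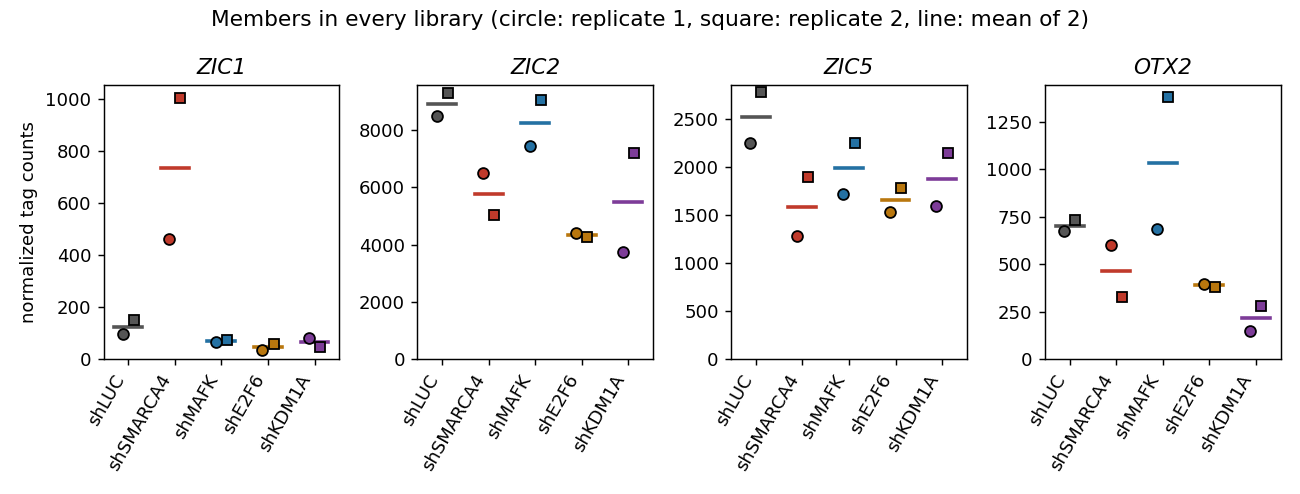
Normalized tag counts (vertical axes, starting at 0, with a separate scale for each gene) of ZIC1, ZIC2, ZIC5 and OTX2 in the 5 groups. Circles are replicate 1, squares replicate 2 and lines the mean of 2 libraries. ZIC1 has its highest values in shSMARCA4 (462 and 1004), and OTX2 its lowest in shKDM1A (148 and 280).

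ZIC1, a factor of neural crest and dorsal neural tube in embryos, had 95 and 149 normalized tag counts in shLUC and 462 and 1004 in shSMARCA4. Its values were 36 and 59 in shE2F6, 79 and 48 in shKDM1A, and 64 and 75 in shMAFK. Both shSMARCA4 libraries stood above the other 8, whose highest value was 149, and all 6 libraries of the other knockdowns stood below both controls. The order of group means was shSMARCA4, shLUC, shMAFK, shKDM1A and shE2F6, in which the last 3 overlapped between neighbours. The group means of 733 ± 383 (SD, n = 2) in shSMARCA4 and 122 ± 38.2 in shLUC differed by 2.51 on the log2 scale (SE 0.43), a 5.68-fold difference. The replicates of shSMARCA4 differed 2.17-fold from each other, and the difference was 1.95 on the log2 scale without the higher library and 3.07 without the lower. Against shLUC, ZIC1 differed by -0.77 in shMAFK, -1.35 in shE2F6 and -0.94 in shKDM1A (SE 0.43 each). These lower values depended on which control was used, since without shLUC replicate 2 they were -0.45, -1.03 and -0.62.

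The comparisons among knockdowns leave the control pair out. ZIC1 in shSMARCA4 differed from shMAFK by 3.28 on the log2 scale, from shE2F6 by 3.86 and from shKDM1A by 3.45 (SE 0.43 each), with no overlap in any of these 3 pairs. The background of rows without overlap was 55.6% of all rows for shSMARCA4 against shMAFK, 46.5% against shE2F6 and 44.5% against shKDM1A.

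ZIC2, which is required for forebrain formation in humans, had 8497 and 9298 in shLUC and 7442 and 9058 in shMAFK. It had 6492 and 5028 in shSMARCA4, 4392 and 4262 in shE2F6, and 3756 and 7211 in shKDM1A. The shMAFK libraries overlapped the controls, and the 6 libraries of the other knockdowns lay below both controls. In shE2F6 the mean was 4327 ± 91.9 (SD, n = 2) against 8898 ± 566 in shLUC, 48.6% of the control, a log2 difference of -1.04 (SE 0.28). ZIC2 differed by -0.77 in shKDM1A, -0.64 in shSMARCA4 and -0.11 in shMAFK. The value in shKDM1A was -0.30 without replicate 1 and -1.24 without replicate 2, so its size was set by single libraries.

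ZIC5, the head-to-head neighbour of ZIC2, had 2257 and 2782 in shLUC and 1278 and 1898 in shSMARCA4. It had 1530 and 1780 in shE2F6, 1600 and 2147 in shKDM1A, and 1722 and 2257 in shMAFK. All knockdown group means lay below the control mean of 2519.5 ± 371 (SD, n = 2), from 63% of it in shSMARCA4 to 79% in shMAFK. Neighbouring groups in the order of means overlapped throughout, and the log2 differences were -0.69 in shSMARCA4, -0.60 in shE2F6, -0.43 in shKDM1A and -0.35 in shMAFK (SE 0.25 each). ZIC5 had the narrowest span of group means among the members, 0.69 on the log2 scale, against 1.04 for ZIC2, 2.25 for OTX2 and 3.86 for ZIC1. The ratio of ZIC2 to ZIC5 values was 3.76 and 3.34 in shLUC and 2.87 and 2.39 in shE2F6. It was 4.32 and 4.01 in shMAFK, 5.08 and 2.65 in shSMARCA4, and 2.35 and 3.36 in shKDM1A, so only the shE2F6 and shMAFK pairs lay wholly on 1 side of the controls.

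OTX2 had 674 and 734 in shLUC, 602 and 326 in shSMARCA4, and 394 and 382 in shE2F6. It had 686 and 1384 in shMAFK and 148 and 280 in shKDM1A. The shKDM1A libraries were the lowest of the 10, and shMAFK replicate 2 was the highest. The mean of 214 ± 93.3 (SD, n = 2) in shKDM1A was 30.4% of the control mean of 704 ± 42.4, a log2 difference of -1.78 (SE 0.40), which was -1.33 without replicate 1 and -2.24 without replicate 2. OTX2 differed by -0.86 in shE2F6, where both libraries were alike, and by -0.67 in shSMARCA4, where the difference was -0.22 without replicate 2. In shMAFK the difference of 0.47 came from replicate 2, since it was -0.04 without it. Among the knockdowns, OTX2 in shMAFK differed from shKDM1A by 2.25 and from shE2F6 by 1.33 on the log2 scale (SE 0.40 each), with no overlap. Rows without overlap made up 39.2% of all rows for shMAFK against shKDM1A and 50.7% for shMAFK against shE2F6.

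**Figure D2:**
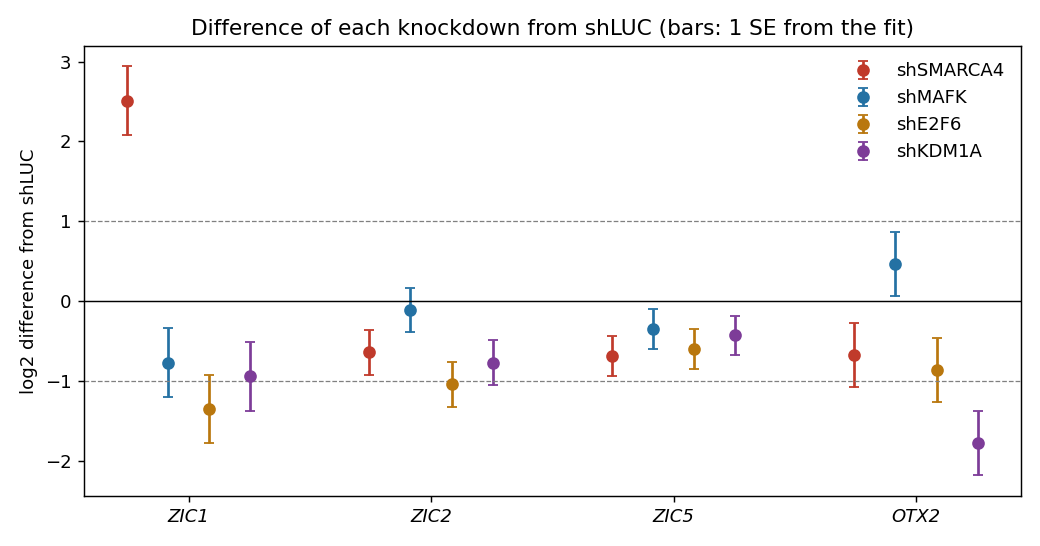
Difference from shLUC on the log2(value + 1) scale (vertical axis) for each member (horizontal axis) in the 4 knockdowns. Points are differences of group means of 2 libraries, bars 1 SE from the fit of all 10 libraries, and dashed lines a 2-fold difference. ZIC1 in shSMARCA4 (2.51) and OTX2 in shKDM1A (-1.78) lie farthest from 0.

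Set side by side, the members did not move as a unit. In shSMARCA4, 1 member was higher and 3 were lower than both controls with no overlap, where 25.6% of all rows were higher and 25.4% lower in this way. At least a 2-fold difference was seen for 1 of 4 members, ZIC1, against 2.22% of all rows at least 2-fold higher. In shE2F6, 4 of 4 members lay below both controls (20.4% of all rows), and ZIC1 and ZIC2 differed at least 2-fold (0.676% of all rows were at least 2-fold lower). In shKDM1A, 4 of 4 lay below both controls (20.9% of all rows), and OTX2 differed at least 2-fold (1.72% of all rows were at least 2-fold lower). In shMAFK, ZIC1 was lower than both controls (25.3% of all rows), 3 members overlapped them and 0 differed at least 2-fold (2.28% of all rows in either direction). The median log2 difference of the 4 members was -0.95 in shE2F6, -0.86 in shKDM1A, -0.66 in shSMARCA4 and -0.23 in shMAFK, and that of all rows lay between -0.02 and 0.01. Because the members were chosen with these values known, the counts describe the set and support nothing beyond it.

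Summed over ZIC1, ZIC2 and ZIC5, the level per kilobase was 3068 and 3431 in shLUC, 2305 and 2076 in shSMARCA4, and 1662 and 1680.0 in shE2F6. It was 2629 and 3234 in shMAFK and 1491 and 2648 in shKDM1A. The sum was thus below both controls in shSMARCA4, shE2F6 and shKDM1A, although ZIC1 was higher in shSMARCA4. ZIC1 made up 0.455% and 0.638% of this sum in shLUC and 2.95% and 7.11% in shSMARCA4. ZIC2 made up between 73.2% (shSMARCA4 replicate 2) and 85.5% (shMAFK replicate 1) of it in every library. In bulk RNA, fewer cells that make a transcript and less of it per cell cannot be told apart.

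Within groups, some members deviated together between replicates. In shKDM1A, replicate 1 was below replicate 2 for OTX2, ZIC2 and ZIC5, by 1.89-, 1.92- and 1.34-fold, and above it for ZIC1. KDM1A itself was at 3290 in replicate 1 and 1879 in replicate 2, so the library with less KDM1A had the member values nearer to the controls for these 3 genes. In shMAFK, OTX2 was high in replicate 2, where MAFK was at 216, and at the control level in replicate 1, where MAFK was at 82. In shSMARCA4, both libraries had little SMARCA4 (1100 and 985), yet ZIC1 was higher in replicate 2 and OTX2 in replicate 1. The endoderm markers EOMES and FOXA2 summed to 3222 and 894 in the shSMARCA4 replicates, against 18 and 36 in shLUC. Of the 4 mesoderm and trophoblast markers, MIXL1 rose in shSMARCA4 from 20 and 14 to 1809 and 132 (limma adjusted p 0.0365) and KRT7 fell from 218 and 296 to 30 and 44 (limma adjusted p 0.00463). KDR and KRT18 did not pass (limma adjusted p 0.321 and 0.817), and the 4 summed to 12925 and 13231 against 11670 and 10934. The neuroectoderm marker SOX3 was at 78 and 294 against 451 and 520. EOMES, FOXA2 and MIXL1 were thus higher in replicate 1, and ZIC1 in replicate 2. The part of these markers in the ZIC and OTX2 values was not tested.

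The rows next to the members along the chromosomes gave smaller differences in shSMARCA4. PLSCR1, 848557 bases below ZIC1, differed by -0.26 (SE 0.22) in shSMARCA4 and GYG1, 1481047 bases above it, by -0.05 (SE 0.23), against 2.51 for ZIC1. Beside the ZIC5 and ZIC2 pair, CLYBL differed by 0.51 (SE 0.19) and AL355338.1 by -0.04 (SE 0.28) in shSMARCA4, opposite in sign to the pair or near 0. In shE2F6 CLYBL was lower than both controls, as ZIC2 and ZIC5 were, with a log2 difference of -0.43. In shKDM1A AL355338.1 was below both controls, at 154 and 286 against 350 and 311, a log2 difference of -0.65 beside -0.77 for ZIC2 and -0.43 for ZIC5, and all 3 were lower in replicate 1. TMEM260 and AL391152.1, on either side of OTX2, differed by -0.04 (SE 0.17) and -0.46 (SE 0.25) in shKDM1A, against -1.78 for OTX2. AL391152.1 was below both controls in shKDM1A, shSMARCA4 (-0.37) and shE2F6 (-0.40), the knockdowns in which OTX2 was. TMEM260 was below both controls in shSMARCA4 only (-0.23).

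The genes with the most similar profile were found by the root mean square difference of centred log2 values over the 10 libraries, among 13758 other genes. They were sought for the 3 members whose group means spanned at least 1 on the log2 scale. Nearest to ZIC1 were FOXB1, TMEM266 and PLXNB3, at 0.65, 0.66 and 0.72. FOXB1, a forkhead transcription factor of the neural tube, had 942 and 1338 in shSMARCA4 and 187 and 182 in shLUC, and TMEM266, a membrane protein, had 346 and 322 against 81 and 60. PLXNB3, a semaphorin receptor, had 134 and 202 against 34 and 34. Each of the 3 was thus higher in both shSMARCA4 libraries, and, as with ZIC1, their shMAFK values lay below both controls. ZIC1 was also below both controls in shE2F6 and shKDM1A, where FOXB1 overlapped them (168 and 205, and 221 and 144). PLXNB3 overlapped them in shE2F6 (42 and 32), and TMEM266 was below them in both.

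Nearest to ZIC2 were AL021368.2, TSPAN6 and CACNB1, at 0.20, 0.20 and 0.21, all of them lower than both controls in shE2F6. Nearest to OTX2 were TFAP2C (a transcription factor of trophoblast, germ cells and naive pluripotency) and LIMCH1 at 0.36 and ILDR2 at 0.42. TFAP2C had 99 and 138 in shMAFK, 60 and 59 in shLUC and 16 and 53 in shKDM1A, so its highest and lowest libraries were those of OTX2. Among the members themselves, ZIC2 and ZIC5 were the closest pair, at 0.35, and ZIC1 and OTX2 the most distant, at 1.65. Even so, ZIC5 was only at rank 536 of the 13758 genes compared with ZIC2. By Pearson correlation over the 10 libraries, ZIC2 was closer to OTX2 (0.793) than to ZIC5 (0.641).

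**Figure D3:**
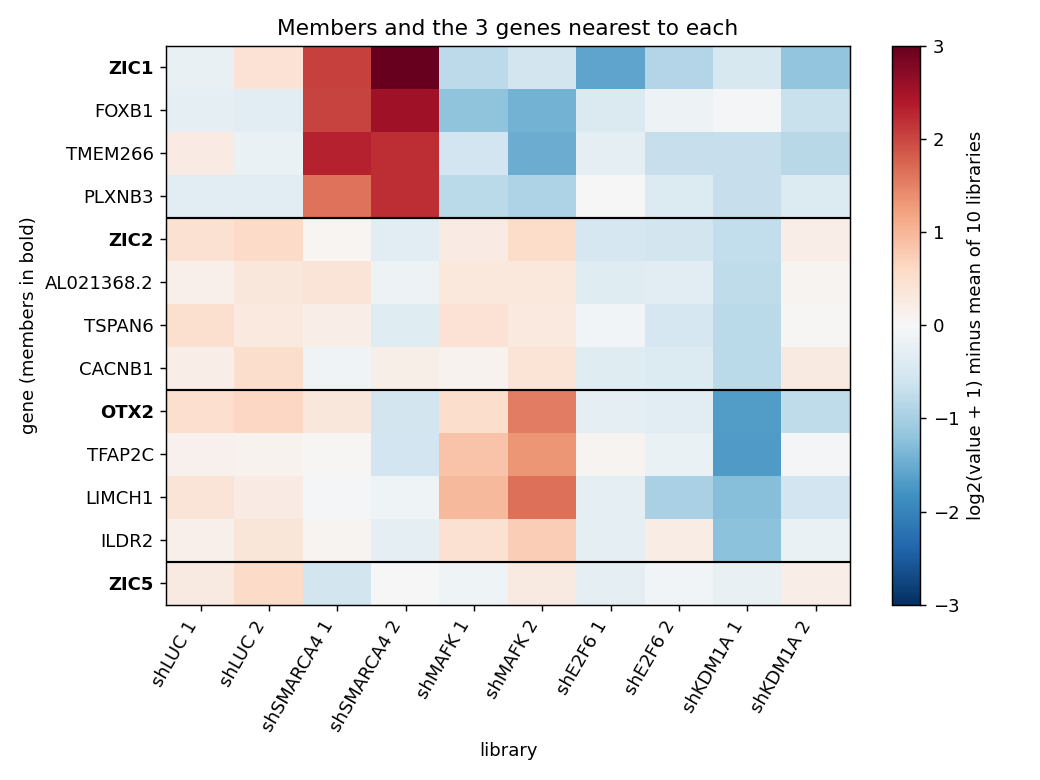
Colour shows log2(value + 1) minus the mean of the 10 libraries for each member (bold) and the 3 genes nearest to it, with libraries along the horizontal axis. ZIC5, whose group means spanned under 1, is shown alone in the bottom row. ZIC1 and its neighbours are high in the shSMARCA4 columns, and OTX2 and its neighbours have their lowest values in shKDM1A replicate 1.

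Other genes around the ZIC and OTX2 factors were taken from 6 lists of 130 genes, of which 66 were in the table: GLI and OTX relatives (4 of 9), Hedgehog pathway (11 of 17), neural plate (15 of 34), neural crest and roof plate (5 of 25), organiser and anterior mesendoderm (12 of 20), and primed and naive pluripotency (20 of 26). Genes were tested with limma over all rows, with Benjamini-Hochberg adjustment. In shSMARCA4, 8 of the 66 passed (12.1%), 3 higher and 5 lower, where 4.18% of all rows passed, 1.67% higher and 2.51% lower. The lists were chosen with earlier results of these data known, so the shares describe the lists and do not test them. In shMAFK, shE2F6 and shKDM1A, 0 passed, where 0.0135%, 0.0% and 0.0271% of all rows did. At an unadjusted p under 0.05, limma gave 15, 16 and 9 of the 66, and 8.77%, 5.09% and 11.5% of all rows, in that order. With a separate weight for each group, limma passed 4 in shMAFK (SHISA2, HMX2, SP8 and DUSP6), 1 in shE2F6 (SOX21) and 0 in shKDM1A, and 13 in shSMARCA4.

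Direct relatives and the Hedgehog pathway gave no call in any of the 4 comparisons. GLI1, GLI2, GLI3 and GLIS2 were in the table, and OTX1 was not analysed here. Their median log2 difference lay between -0.16 (shSMARCA4) and 0.21 (shE2F6). PTCH1, the Hedgehog receptor and itself a target of the pathway, had 632 and 776 in shLUC. It had 1058 and 1264 in shE2F6, 1120 and 1078 in shKDM1A, 880 and 1010 in shMAFK and 792 and 978 in shSMARCA4, with limma adjusted p of 0.712, 0.308, 0.556 and 0.441. Both control values of PTCH1 lay below those of all 8 knockdown libraries, which share these controls, and no difference passed the threshold.

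In the neural plate list, 1 gene rose and 2 fell in shSMARCA4, with 12 not past the threshold and a median log2 difference of -0.37. SP8, a zinc finger factor of the anterior neural ridge, rose from 119 and 120 to 475 and 473, a log2 difference of 1.98 (SE 0.21, limma adjusted p 0.00179). POU3F1, a POU factor of epiblast and neural progenitors, fell from 781 and 982 to 275 and 494 (-1.25, SE 0.26, limma adjusted p 0.0339). NCAM1, a neural cell adhesion molecule, fell from 274 and 304 to 84 and 46 (-2.20, SE 0.28, limma adjusted p 0.00414). Called genes of this list thus lay on both sides of the controls. SOX2, a factor of both pluripotent and neural cells, had 4426 and 4748 against 6408 and 6928, with a limma adjusted p of 0.0552.

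SOX21, a repressor of the SOX2 group, followed the OTX2 group means in direction in all 4 knockdowns without passing the threshold. In shMAFK this rests on 1 library, since OTX2 overlapped the controls there and differed by -0.04 without replicate 2. SOX21 had 454 and 392 in shLUC, 110 and 59 in shE2F6, and 168 and 102 in shKDM1A. It had 156 and 230 in shSMARCA4, and 728 and 912 in shMAFK. Its limma adjusted p was 0.239, 0.172, 0.113 and 0.445 in that order of knockdowns. LHX5, a forebrain LIM factor, had 51 and 191 in shLUC. It had 1 and 0 in shE2F6, 2 and 2 in shKDM1A, and 2 and 6 in shSMARCA4. Its limma adjusted p was 0.885, 0.407 and 0.307 in that order of knockdowns. Its SE of 1.97 comes from the fit of all 10 libraries, and its shMAFK libraries (9 and 113) also lay far apart. SOX21 and LHX5 fall outside the rule for named genes and were chosen after their values were seen.

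Of the neural crest and roof plate list, where ZIC1 would belong by its known role, 5 of 25 genes were in the table. NGFR, the low-affinity neurotrophin receptor and a surface marker of neural crest, fell in shSMARCA4 from 531 and 566 to 76 and 96, a log2 difference of -2.67 (SE 0.20, limma adjusted p 0.000505). FOXD3, SOX9, ETS1 and TFAP2C did not pass, and FOXD3 had 436 and 462 against 740 and 661 (limma adjusted p 0.192). PAX3, TFAP2A, SOX10, SNAI2 and TWIST1 were not analysed here. The higher ZIC1 values thus stood beside lower values of the list's only called gene.

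In the organiser and anterior mesendoderm list, 2 genes rose and 1 fell in shSMARCA4, and the median log2 difference was 1.58. FST (follistatin, an activin antagonist) rose from 362 and 444 to 963 and 960 (1.26, SE 0.26, limma adjusted p 0.0314). SHISA2, an antagonist of WNT and FGF receptors, rose from 960 and 1060 to 2332 and 2376 (1.22, SE 0.24, limma adjusted p 0.0251). SFRP1, a secreted WNT antagonist, fell from 11638 and 13161 to 4527 and 4750 (-1.42, SE 0.21, limma adjusted p 0.00886). The 8 genes of the list that were at least 2-fold higher in shSMARCA4 (2.22% of all rows) included EOMES, CER1 and FOXA2, which did not pass. CER1 had 2354 and 172 against 44 and 21 (limma adjusted p 0.296), a spread set by replicate 1. In shMAFK the same list had a median of -1.17, with 6 genes at least 2-fold lower (1.07% of all rows) and 0 past the threshold (4 at an unadjusted p under 0.05 with limma).

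The primed and naive pluripotency list had a median log2 difference between -0.26 (shKDM1A) and 0.12 (shSMARCA4). THY1, a surface glycoprotein of primed cells, fell in shSMARCA4 from 8852 and 9056 to 2794 and 3314 (-1.56, SE 0.26, limma adjusted p 0.013), and it was the only one of 20 past the threshold. ZFP42 and DNMT3B had limma adjusted p of 0.837 and 0.883 in shSMARCA4. DUSP6, a phosphatase that ERK signalling induces, had 2879 and 3673 in shLUC, 1591 and 1586 in shKDM1A, and 1722 and 821 in shMAFK, with limma adjusted p of 0.326 and 0.155. It had 2190 and 1780 in shE2F6, and in shSMARCA4 it lay above both controls, at 5844 and 5536, with limma adjusted p of 0.963 and 0.214.

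**Figure D4:**
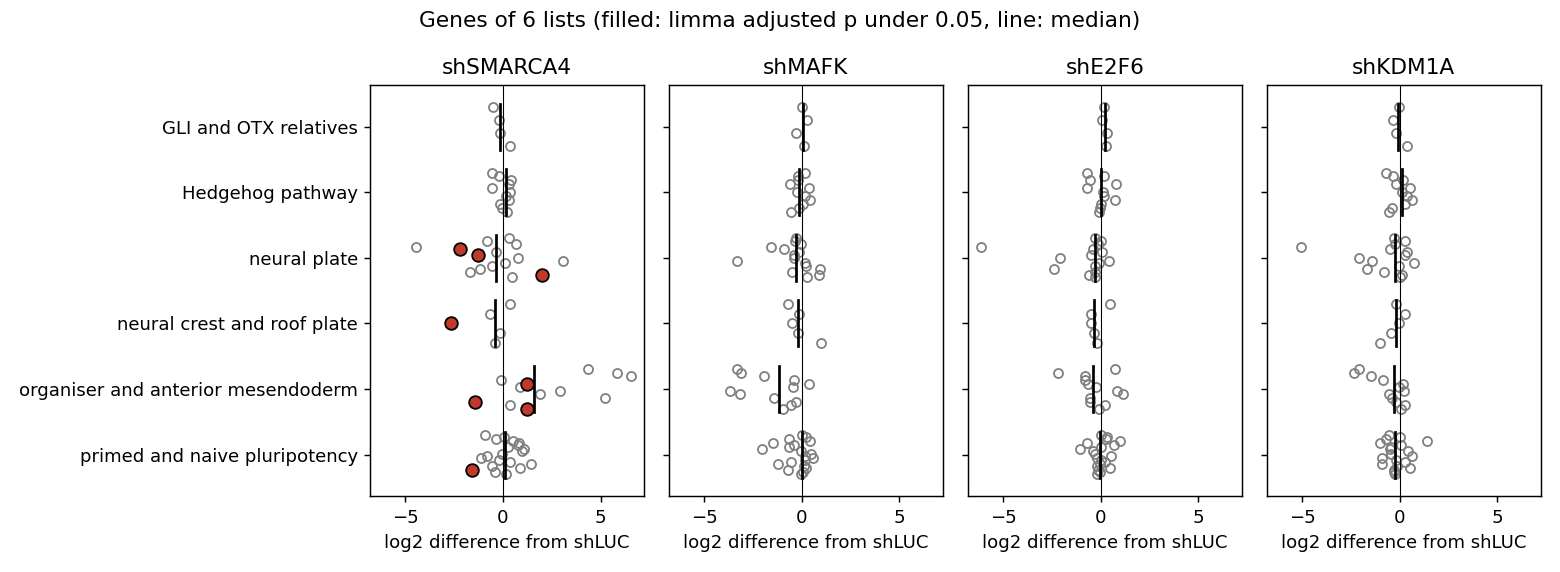
Log2 difference from shLUC (horizontal axes) of the 66 genes of 6 lists (rows) in the 4 knockdowns (panels); genes on 2 lists are drawn in both. Open circles are genes not past the threshold, filled circles genes with a limma adjusted p under 0.05, and vertical lines list medians. The 8 filled genes are all in the shSMARCA4 panel.

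NGFR and SP8 passed in each of the 4 fits that left out 1 shSMARCA4 or shLUC library. The other 6 called genes did not pass in all of these fits, since 2 to 4 list genes passed: 2 without shLUC replicate 2, 3 without shLUC replicate 1, 3 without shSMARCA4 replicate 1 and 4 without shSMARCA4 replicate 2.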

How the data were processed

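RNA-seq of 10 H1 libraries in 5 groups of 2 was used, grouped by sample titles. Per the submitters' processing notes, STAR, STARsolo and hg38 were used. The counter, annotation and normalization are not given in the sources used here. The authors' deposited score is a whole normalized tag count, not a raw count: all libraries share 80.3% of ranked values and each has a median of 594. Gene positions are from GENCODE release 29 (GRCh38), in which all 13808 gene identifiers were found. Columns not mapped to a sample numbered 0. Further genes of the set are not reported here.

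Values were analysed as log2(value + 1), where a fold of a low row is understated. Rows with a mean of at least 10 (all 14785) were fitted with limma 3.58.1 in R 4.3.3 (trend, two-sided, 5 residual degrees of freedom), with Benjamini-Hochberg adjusted p under 0.05 as the threshold. The fit was tested on simulated data with a capped spread that was equal in all groups. The spread of these libraries differs between groups, so that test does not show how the fit performs on them. Tables and plots used Python 3.11.15, pandas 2.3.3 and matplotlib 3.10.9.

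The members, lists, rule for named genes and alternatives were chosen with earlier results of these data known. Named genes were the members, list genes past the threshold, the 3 nearest profiles (mean at least 50) and the nearest row on each side. Other list genes were named after their values were seen.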

Additional observations from a re-analysis of the deposited data

How the results depend on the processing

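With 2 libraries a group, 1 cell line and no read depth, the counts of list genes past the threshold depended on the model. With limma, 8 list genes in shSMARCA4 became 13 with group weights and 20 with only the 2 groups compared, and 2 to 11 passed on leaving out 1 library. In shMAFK, 0 became 4 with group weights and 1 when the shKDM1A pair was dropped, and 0 to 1 passed on leaving out 1 library. In shE2F6, 0 became 1 with group weights. In shKDM1A, 0 stayed 0 with group weights, and 0 to 13 passed on leaving out 1 library, the 13 coming without shKDM1A replicate 2. Members at least 2-fold apart numbered 1 to 2 in shSMARCA4, 0 to 1 in shMAFK, 1 to 2 in shE2F6 and 1 to 2 in shKDM1A on leaving out 1 library, against 1, 0, 2 and 1. A group left with 1 library was assumed to vary like the others. The cause of these shifts was not tested.

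The pseudocount of 10 and both other scalings moved the members' log2 differences by 0.15 at most (48 values). Leaving out 1 library moved them by up to 0.56 (64 values). ZIC1 in shE2F6, at -1.35, was -1.20 with the pseudocount, -1.49 with quantile normalization and -1.35 with median of ratios. The libraries already shared 80.3% of ranked values and a median of 594, and median-of-ratios factors ran from 0.974 to 0.992. Both scalings thus had little left to change, and their small shifts do not show how the results depend on normalization. Of 160 alternative values for the 8 called list genes, 28 no longer passed. Same-numbered replicates did not pair in most groups: correlations of their deviations ran from -0.05 to 0.337 over 10 pairs of groups, 2 of them over 0.1. The highest was that of shSMARCA4 with shE2F6, whose same-numbered libraries deviated together in part. With the replicate number as a block, 9, 0, 0 and 0 list genes passed in shSMARCA4, shMAFK, shE2F6 and shKDM1A.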
